A study of Mus musculus with 4 samples.

Results

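The genes described here are 9 developmental and leukemia-linked regulators: the Hoxa cluster members Hoxa3, Hoxa5, Hoxa7, Hoxa9 and Hoxa10, and Meis1, Pbx3, Mn1 and Nkx2-3. They were taken by name, as the program tied to cytoplasmic nucleophosmin, from 26687 gene symbols in the count tables of 4 single-cell libraries. The choice was made with earlier results of these data known. Shares of all genes printed beside counts of the 9 therefore give a scale and are no test of the set. All 9 were found, and all 9 reached the floor of a mean of 5 CPM (UMIs, the counted molecules of a gene, scaled to a common library total) over the 4 libraries, which 10234 genes reached. The libraries held long-term hematopoietic stem cells (LT-HSCs) sorted from the crushed limb bones and sternum of C57BL/6 mice aged 8 to 11 weeks. There was 1 library for each genotype: NPMc+, Flt3-ITD, NPMc+/Flt3-ITD and, as control, Mx, whose genotype is given as MxCRE. Whether the mutant mice also carried MxCRE, how the NPMc+ allele is switched on, and how many mice were pooled are not given in the sources used here. With 1 library per genotype, genotype and library cannot be told apart, no test of genotype was possible, and every interval below is an exact 95% interval that covers counting error only.

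Hox genes encode homeodomain transcription factors that set position along the body axis in the embryo. In blood, those of the Hoxa cluster are highest in stem cells and early progenitors and are shut down as cells mature. HOX proteins bind DNA weakly alone and gain affinity and choice of site from TALE homeodomain partners, among them the PBX proteins and MEIS1. NPM1 is a nucleolar chaperone, and NPMc+ is the mutant form that is held in the cytoplasm. Leukemias with that mutation carry high HOXA, HOXB and MEIS1 transcripts, often together with FLT3 internal tandem duplication (Flt3-ITD), which keeps the FLT3 receptor kinase active.

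The promoter windows of 4 genes are shown because these genes divided the libraries in different ways: as whole libraries, Hoxa5 and Hoxa7 stood high in both with NPMc+, and Hoxa10 and Nkx2-3 in only 1 of them. Each window runs from 250 bases before to 50 after an annotated start, from RefSeq on GRCm38.p6 (mm10). The Hoxa7 window lies inside the GENCODE M21 span of its gene (52214491 to 52221854), away from the outermost start. The same holds for the Hoxa9 window, which is not printed (gene span 52223100 to 52231089). Capitals mark CCAAT on either strand, the core site of NF-Y.
Hoxa5, chr6:52204538-52204837, minus strand: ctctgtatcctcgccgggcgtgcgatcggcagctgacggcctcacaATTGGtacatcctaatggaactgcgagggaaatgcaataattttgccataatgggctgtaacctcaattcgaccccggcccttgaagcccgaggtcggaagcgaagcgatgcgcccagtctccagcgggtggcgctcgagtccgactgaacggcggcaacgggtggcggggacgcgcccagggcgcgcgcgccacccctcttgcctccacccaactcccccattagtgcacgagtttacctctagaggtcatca
Hoxa7, chr6:52218524-52218823, minus strand: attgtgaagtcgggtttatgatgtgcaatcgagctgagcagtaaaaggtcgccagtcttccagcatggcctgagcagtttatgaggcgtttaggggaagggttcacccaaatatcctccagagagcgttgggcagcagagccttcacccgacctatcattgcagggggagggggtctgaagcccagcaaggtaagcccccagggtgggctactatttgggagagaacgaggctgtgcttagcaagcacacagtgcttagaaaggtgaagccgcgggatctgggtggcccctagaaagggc
Hoxa10, chr6:52240805-52241104, minus strand: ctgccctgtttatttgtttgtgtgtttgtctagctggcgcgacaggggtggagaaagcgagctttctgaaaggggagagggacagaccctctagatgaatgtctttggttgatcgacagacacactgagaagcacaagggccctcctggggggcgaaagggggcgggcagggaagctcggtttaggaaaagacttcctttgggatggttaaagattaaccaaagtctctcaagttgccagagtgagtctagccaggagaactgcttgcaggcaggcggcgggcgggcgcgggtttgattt
Nkx2-3, chr19:43612075-43612374, plus strand: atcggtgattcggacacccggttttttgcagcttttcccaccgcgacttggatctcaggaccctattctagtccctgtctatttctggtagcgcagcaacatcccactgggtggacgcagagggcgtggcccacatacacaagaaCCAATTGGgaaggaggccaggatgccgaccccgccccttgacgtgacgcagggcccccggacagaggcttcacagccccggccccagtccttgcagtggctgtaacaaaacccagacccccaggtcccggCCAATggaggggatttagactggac
Windows were found for 7 of the 9 genes, 8 windows in all, since Hoxa10 has an inner window (chr6:52234890-52235189). They were searched on both strands for TGACAG, a core site of MEIS proteins, for TGATNNAT, the shape of a joint PBX and HOX site, and for CCAAT. The letters TGACAG were found in the Hoxa3 window only, against 19.2% of 32851 RefSeq windows of 300 bases. TGATNNAT was in none of the 8, against 8.85% of all windows. CCAAT was in the windows of Hoxa5, Meis1 and Nkx2-3 and in the inner window of Hoxa10, against 37.4% of all windows. In Nkx2-3, 2 of its 3 CCAAT matches overlap on opposite strands. A match is a run of letters, not a shown site of binding.

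By GENCODE M21 on the same build, the 5 Hoxa genes lie on the minus strand of chromosome 6 between 52169062 and 52240854. Hoxa5 (52201754 to 52204587) lies within the annotated span of Hoxa3 (52169062 to 52213336), and the antisense gene Hoxaas3 (52175217 to 52215076) overlaps Hoxa3, Hoxa5 and Hoxa7. The strand setting of the counting is not given in the sources used here, so the counts of Hoxa3, Hoxa5 and Hoxa7 are uncertain to that extent. The annotation Gm28308 (52163359 to 52213339) covers Hoxa3 and Hoxa5 whole on their own strand, so their counts are uncertain whatever that setting was. Hoxa9 spans 52223100 to 52231089 and Hoxa10 spans 52231197 to 52240854. Meis1 lies on chromosome 11 (18879817 to 19018985, minus), Pbx3 on chromosome 2 (34171457 to 34373142, minus), Mn1 on chromosome 5 (111417362 to 111457033, plus) and Nkx2-3 on chromosome 19 (43612325 to 43615892, plus).

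Cells were kept if they had 1000 or more UMIs, 500 or more genes, and no more than 10% of UMIs from mitochondrial genes. They numbered 2375 in NPMc+, 2393 in Flt3-ITD, 3321 in NPMc+/Flt3-ITD and 2519 in Mx. The libraries held 20943905 to 26965367 UMIs in these cells, and their medians lay between 7323 and 9466 UMIs per cell. Of all barcode sequences, 148 occurred in more than 1 library, 52 of them with a kept cell in more than 1. Npm1 itself stood at 1820, 1724 and 2180 CPM in the 3 mutant libraries and at 1628 CPM in Mx, and the tables cannot tell mutant from normal transcripts. Gm5611, an Npm1-like gene, followed the NPMc+ label, with 859 CPM in NPMc+ and 647 CPM in NPMc+/Flt3-ITD against 1.001 CPM in Flt3-ITD and 1.91 CPM in Mx. The libraries also differed in what their cells carried. Cells with a UMI for 3 or more of 10 stem cell markers at 3000 UMIs, called stem cell marker cells here, made up 30.0% of the NPMc+, 15.1% of the Flt3-ITD and 6.81% of the NPMc+/Flt3-ITD library, against 38.9% of Mx. Other classes were set the same way from their own markers. Cells with fewer than 3000 UMIs were classed on all the UMIs they had, which gives them less chance to reach 3 markers. T-lineage marker cells (11 markers) numbered 966 in NPMc+/Flt3-ITD, 29.1% of that library, and at most 13 in any other. The summed T-lineage markers stood at 1615 CPM there against 45.9 to 58.1 CPM elsewhere. All 11 had UMIs in every library. Fewer cells of a kind and less RNA per cell cannot be told apart in the sums of whole libraries, and the part of these cell classes in the genotype ratios is shown only where values without them are given.

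**Figure D1:**
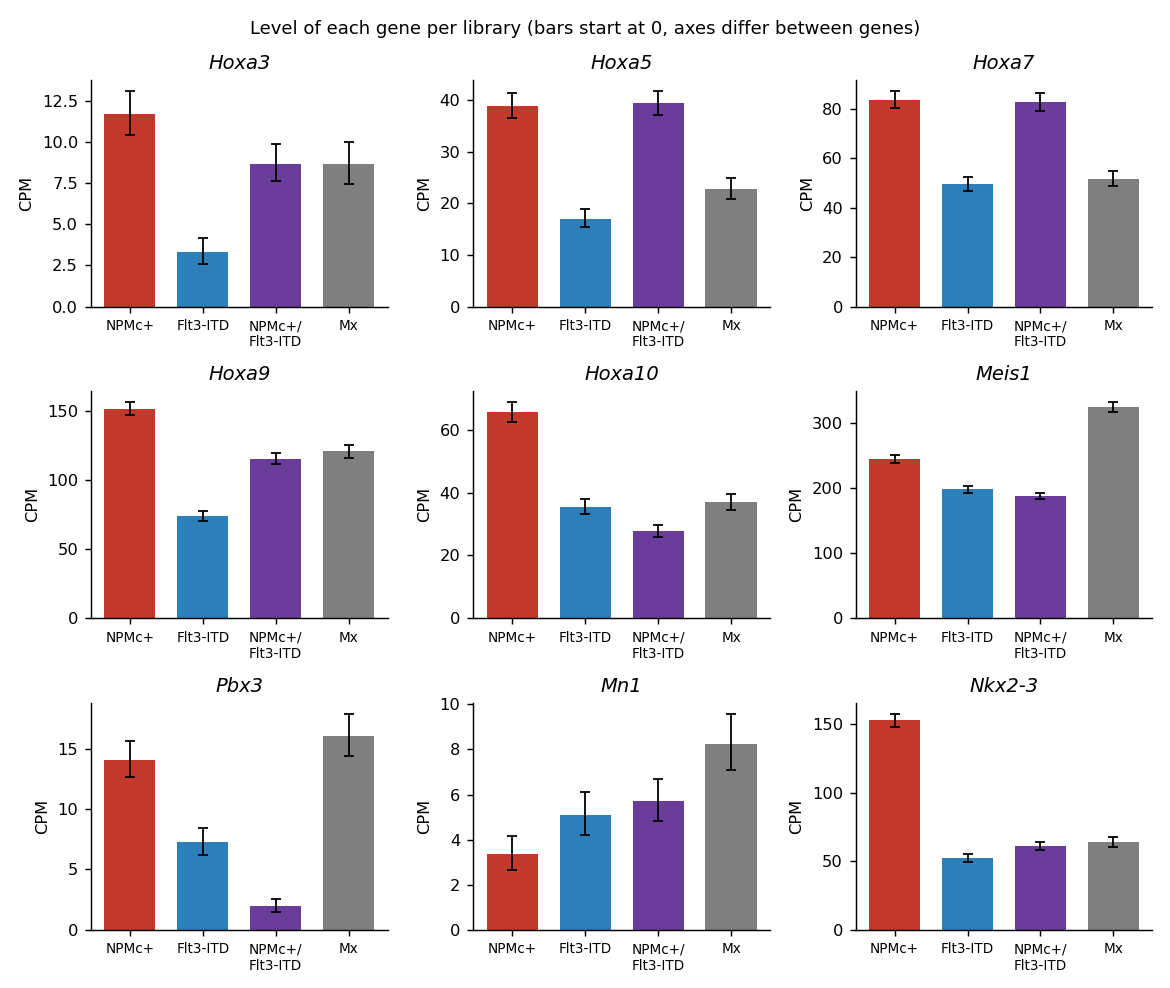
CPM of each gene in the 4 libraries, mutant libraries left and Mx right, on linear axes that start at 0 and differ between genes. Bars are the pooled value of all kept cells and whiskers the exact 95% Poisson interval. As whole libraries, Hoxa5 and Hoxa7 stood high in both with NPMc+, Hoxa10 and Nkx2-3 in NPMc+ only, and Meis1 was highest in Mx. In female cells alone, NPMc+/Flt3-ITD also stood above Mx for Hoxa10 (75.2 and 37.5 CPM) and Nkx2-3 (121 and 59.4 CPM). Hoxa5 passed 1.5-fold over Mx in neither library with NPMc+ there.

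The NPMc+ library was set against Mx to ask what the mutant nucleophosmin does to this program in stem cells. Its 5 Hoxa genes were all higher than in Mx, by 1.25-fold to 1.77-fold, while Meis1 and Mn1 were lower. Summed over the 5 Hoxa genes, the level was 351 CPM (344 to 359) in NPMc+ and 241 CPM (234 to 248) in Mx. Past 1.5-fold there were 4 genes higher, where 4.9% of all measured genes were, and 1 gene lower, where 12.8% were (17.7% in either direction). With TMM scaling, which sets library size by the bulk of genes, those shares of all genes were 7.74% and 8.18%, and the median log2 ratio of all genes was 0.08 in place of -0.06.

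Among the Hoxa genes, Hoxa10, a posterior member that holds back differentiation when overexpressed, stood at 65.7 CPM in NPMc+ and 37.1 CPM in Mx, 1.77-fold higher (1.63 to 1.93). Hoxa5 had 38.9 CPM in NPMc+ and 22.8 CPM in Mx, 1.71-fold higher (1.53 to 1.91). Hoxa7 had 83.8 CPM in NPMc+ and 51.8 CPM in Mx, 1.62-fold higher (1.504 to 1.74). These 3 lay at percentiles 96.1 to 97.1 of the ratios of all 10234 genes. Hoxa9, the member most often tied to leukemia, differed less, with 151 CPM in NPMc+ and 121 CPM in Mx, 1.25-fold higher (1.19 to 1.32). Hoxa3 had 11.7 CPM in NPMc+ and 8.64 CPM in Mx, 1.35-fold higher (1.12 to 1.64). Neither Hoxa9 nor Hoxa3 passed 1.5-fold, and all 5 intervals lay above 1. In female cells alone, described further on, Hoxa5 did not pass 1.5-fold either.

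Outside the cluster the genes parted. Nkx2-3, a homeobox gene of the NK family known for its part in forming spleen and gut vessels, had the highest ratio of the 9, with 153 CPM in NPMc+ and 64.1 CPM in Mx, 2.38-fold higher (2.24 to 2.54). Meis1, the TALE partner of HOXA9, went the other way, with 245 CPM in NPMc+ and 324 CPM in Mx, a ratio of 0.755 (0.73 to 0.782). Pbx3, a PBX partner found with HOXA9 in leukemia, had 14.1 CPM in NPMc+ and 16.1 CPM in Mx, and its interval held 1. Mn1, a transcriptional coregulator and leukemia oncogene, had 3.35 CPM in NPMc+ and 8.26 CPM in Mx, a ratio of 0.406 (0.309 to 0.529), on 84 and 173 UMIs. The Hoxa genes and Nkx2-3 thus stood above Mx in the library in which Meis1 and Mn1 stood below it.

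In the Flt3-ITD library all 9 ratios to Mx were below 1 for whole libraries with total scaling. The median log2 ratio of all genes was itself -0.10, and Hoxa7 and Hoxa10 stood above it, at percentiles 55.2 and 55.7. With TMM scaling that median was 0.04. The ratios of Hoxa7 and Hoxa10 then lay just above 1, at 0.08 and 0.09 on the log2 scale. In stem cell marker cells alone Hoxa10 stood at 1.23 (1.01 to 1.48), Hoxa7 at 1.14 and Nkx2-3 at 1.12 of Mx, and in female cells the same 3 were above 0 on the log2 scale, at 0.23, 0.13 and 0.29 in that order. Past 1.5-fold, 5 genes were lower and 0 higher, where 10.2% and 5.18% of all genes were (15.4% in either direction, and 6.04% and 6.81% with TMM scaling). Hoxa3 had 3.32 CPM in Flt3-ITD and 8.64 CPM in Mx, a ratio of 0.384 (0.289 to 0.507). Pbx3 had 7.23 CPM in Flt3-ITD and 16.1 CPM in Mx, a ratio of 0.45 (0.37 to 0.544). Hoxa9 and Meis1, the pair that together transform mouse marrow cells, were lower by like amounts. Hoxa9 had 73.9 CPM in Flt3-ITD and 121 CPM in Mx, a ratio of 0.612 (0.575 to 0.652). Meis1 had 198 CPM in Flt3-ITD and 324 CPM in Mx, a ratio of 0.61 (0.587 to 0.634). Mn1 had 5.09 CPM in Flt3-ITD and 8.26 CPM in Mx, a ratio of 0.617 (0.482 to 0.787). Hoxa7 and Hoxa10 differed from Mx by less than counting error, Hoxa5 stood at 0.749 and Nkx2-3 at 0.812 of its Mx level. The count of 5 was 2 with TMM scaling, namely Hoxa3 and Pbx3, and 2 when only stem cell marker cells were used, namely Meis1 and Pbx3, where 11.4% of all genes were lower.

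**Figure D2:**
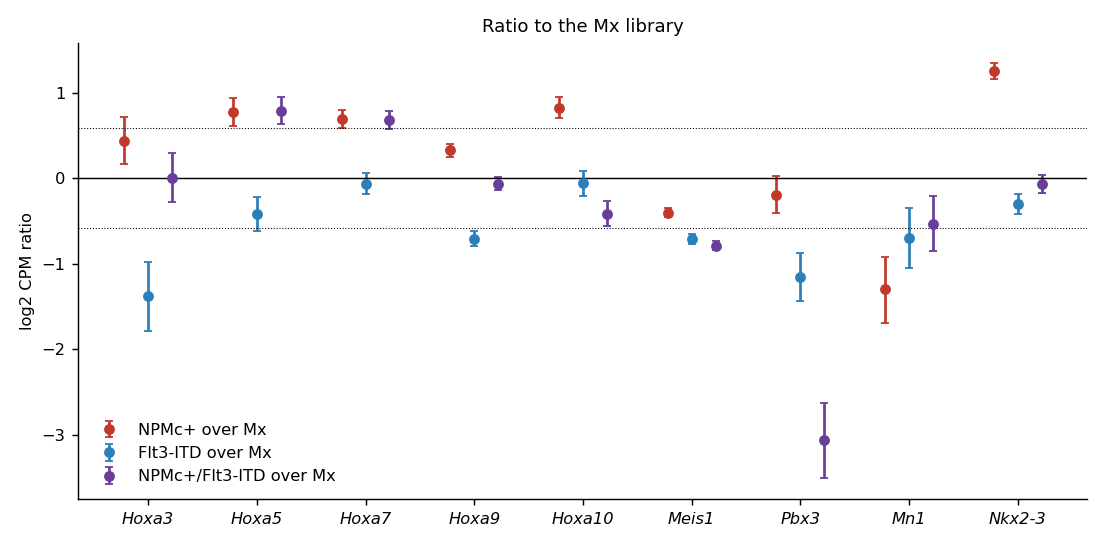
log2 of the CPM ratio of each mutant library to Mx for the 9 genes. Points are ratios, whiskers exact 95% intervals of counting error, and dotted lines mark 1.5-fold in each direction. The median of all genes in Flt3-ITD over Mx was itself -0.10. NPMc+ lies above 0 for the 5 Hoxa genes and Nkx2-3, Flt3-ITD lies below 0 for all 9 with this scaling and these cells (Hoxa7 and Hoxa10 lie above it with TMM, and they and Nkx2-3 in stem cell marker cells or female cells alone), and NPMc+/Flt3-ITD lies above 1.5-fold for Hoxa5 and Hoxa7 only.

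In NPMc+/Flt3-ITD the genes did not all go 1 way. Against Mx, Hoxa5 and Hoxa7 were higher past 1.5-fold and Meis1 and Pbx3 lower, 2 genes each way, where 12.8% of all genes were higher and 12.2% lower (25.0% in either direction). With mitochondrial and ribosomal protein genes left out of the total, those shares of all genes were 7.23% and 17.4%. Hoxa7 then fell short of 1.5-fold, at 0.47 on the log2 scale, and Hoxa10 and Mn1 were lower past it. Hoxa5 had 39.4 CPM in NPMc+/Flt3-ITD and 22.8 CPM in Mx, 1.73-fold higher (1.55 to 1.93). Hoxa7 had 82.8 CPM in NPMc+/Flt3-ITD and 51.8 CPM in Mx, 1.599-fold higher (1.49 to 1.72). With total scaling these levels differed from those of the NPMc+ library by less than counting error. Against NPMc+ the median gene was itself higher by 0.20 on the log2 scale, and by 0.03 with TMM scaling. With TMM scaling Hoxa5 and Hoxa7 both stood below their NPMc+ level. Hoxa9, at 115 CPM, Hoxa3, at 8.68 CPM, and Nkx2-3, at 61.2 CPM, differed from Mx by less than counting error. Hoxa10 was lower, with 27.8 CPM in NPMc+/Flt3-ITD and 37.1 CPM in Mx, a ratio of 0.75 (0.677 to 0.83). Meis1 had 188 CPM in NPMc+/Flt3-ITD and 324 CPM in Mx, a ratio of 0.579 (0.558 to 0.6002). Pbx3 was nearly lost, with 1.93 CPM (52 UMIs) in NPMc+/Flt3-ITD and 16.1 CPM (337 UMIs) in Mx, a ratio of 0.12 (0.0877 to 0.161). Without the T-lineage marker cells the Meis1 ratio was 0.673 (0.648 to 0.699), short of 1.5-fold, and that of Mn1 was 0.584 (0.45 to 0.755), past it.

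Set against Flt3-ITD, NPMc+/Flt3-ITD asks what NPMc+ adds in cells with active FLT3. Hoxa3, Hoxa5, Hoxa7 and Hoxa9 were higher past 1.5-fold, 4 genes where 14.3% of all genes were, and Pbx3 lower, where 8.76% were (23.0% in either direction). With TMM scaling the shares of all genes were 7.92% and 11.5%. Hoxa3 was 2.61-fold higher (2.001 to 3.45), Hoxa5 2.31-fold (2.05 to 2.61), Hoxa7 1.67-fold (1.55 to 1.798) and Hoxa9 1.56-fold (1.47 to 1.66). In this comparison the median gene was itself higher by 0.25 on the log2 scale, and by 0.08 with TMM scaling. With TMM scaling, 2 genes were higher and 1 lower, against 4 and 1, and the 4 Hoxa genes were still above 1. Hoxa10 stood at 0.781 (0.705 to 0.864) of its Flt3-ITD level, Meis1 at 0.949 (0.911 to 0.988) and Pbx3 at 0.267 (0.191 to 0.367). Nkx2-3 was 1.18-fold higher (1.09 to 1.27). Without the T-lineage marker cells, Hoxa10 moved to 0.911 (0.821 to 1.01), an interval that held 1, Meis1 turned to 1.104 (1.06 to 1.15) and Nkx2-3 moved to 1.38 (1.27 to 1.49). Against NPMc+, NPMc+/Flt3-ITD had Mn1 higher, 1.7-fold (1.298 to 2.25), where 14.4% of all genes were higher, and 3 genes lower, where 8.64% were (23.0% in either direction, and 8.88% and 11.4% with TMM scaling). The Mn1 ratio was 1.401 (1.035 to 1.899) without the T-lineage marker cells and turned to 0.897 (0.398 to 1.84) in stem cell marker cells alone. The lower ones were Hoxa10 at 0.423 (0.388 to 0.462), Nkx2-3 at 0.401 (0.378 to 0.425) and Pbx3 at 0.137 (0.1003 to 0.184) of the NPMc+ level.

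The libraries allow the NPMc+ ratio to be read in 2 settings that share no library: NPMc+ over Mx, and NPMc+/Flt3-ITD over Flt3-ITD. As whole libraries, the ratio had the same sign for 7 of the 9 genes, Meis1 among them with a sign that turned in some cells, given below. The share of all genes with the same sign in both settings was not counted, so whether 7 is unusual is not known. With total scaling Hoxa7 was the closest to equal, with log2 ratios of 0.74 beside Flt3-ITD and 0.70 beside Mx, and the interval of their difference held 0. Hoxa3, Hoxa5 and Hoxa9 had larger ratios beside Flt3-ITD, by 0.95 (0.49 to 1.41), 0.44 (0.20 to 0.67) and 0.32 (0.20 to 0.43) on the log2 scale. The median gene itself stood at 0.25 beside Flt3-ITD and -0.06 beside Mx with total scaling, and at 0.08 in both with TMM scaling. All differences given here are with total scaling and include that shift of all genes, so those of Hoxa5, Hoxa7 and Hoxa9 are not read as particular to these genes. The ratio of Nkx2-3 was smaller beside Flt3-ITD by 1.02, at 0.23 there and 1.25 beside Mx. Hoxa10 differed in sign as whole libraries, at -0.36 beside Flt3-ITD and 0.83 beside Mx, a difference of -1.18 (-1.37 to -0.99). That sign was not that of all cells: beside Flt3-ITD, Hoxa10 stood at 0.78 in female cells, and without T-lineage marker cells its ratio of 0.911 had an interval that held 1. Mn1 also differed in sign, at 0.16 with an interval that held 0 beside Flt3-ITD and -1.30 beside Mx. Pbx3 stood at -1.91 beside Flt3-ITD and at -0.19, with an interval that held 0, beside Mx. Meis1 was below 0 in both as whole libraries, at -0.08 beside Flt3-ITD and -0.40 beside Mx, but beside Flt3-ITD its ratio was 1.104 without T-lineage marker cells and 1.16 (1.03 to 1.31) in stem cell marker cells. In stem cell marker cells alone the Hoxa10 ratio was 0.755 (0.572 to 0.989) beside Flt3-ITD and 1.78 (1.55 to 2.05) beside Mx.

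**Figure D3:**
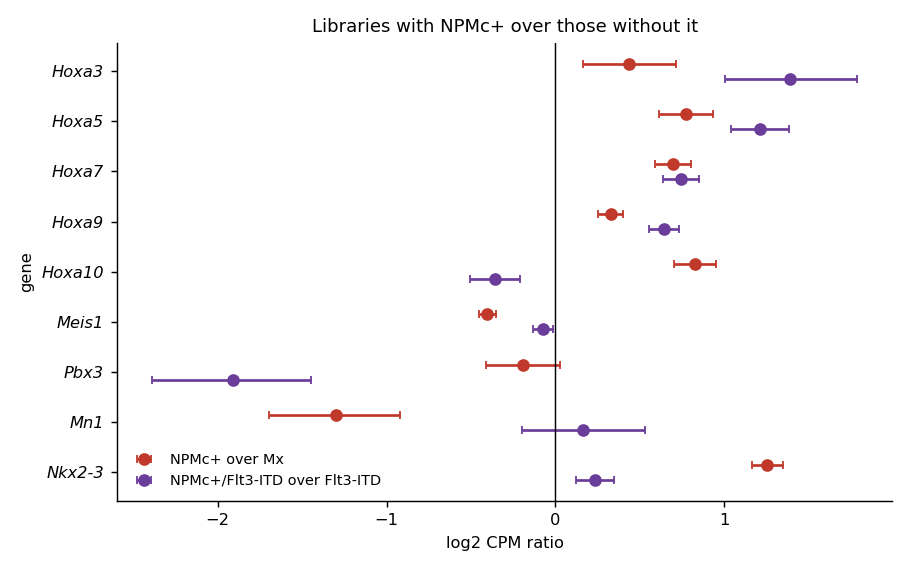
log2 CPM ratios for each gene, NPMc+/Flt3-ITD over Flt3-ITD in purple and NPMc+ over Mx in red, with exact 95% intervals of counting error. Hoxa3, Hoxa5, Hoxa7 and Hoxa9 lie above 0 in both, Hoxa10 lies on opposite sides in these whole libraries (at 0.78 beside Flt3-ITD in female cells), and Pbx3 lies far below 0 only for NPMc+/Flt3-ITD over Flt3-ITD.

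Each library held cells of male and of female mice, told apart by sex-linked transcripts and not by the labels, so the ratios could also be read within each sex. In NPMc+/Flt3-ITD, 2425 cells were called male and 179 female, and the low level of Hoxa10 and Nkx2-3 was that of the male cells. Hoxa10 had 23.5 CPM (21.5 to 25.7) in male NPMc+/Flt3-ITD cells, against 70.3 CPM in male NPMc+, 32.2 CPM in male Flt3-ITD and 35.2 CPM in male Mx cells. In female cells it had 75.2 CPM (62.1 to 90.3) in NPMc+/Flt3-ITD, against 63.5 CPM in NPMc+, 43.9 CPM in Flt3-ITD and 37.5 CPM in Mx. Hoxa10 was therefore higher in both libraries with NPMc+ than in Mx among female cells, and in 1 of them among male cells. Nkx2-3 had 121 CPM (104 to 139.8) in female NPMc+/Flt3-ITD cells, against 143 CPM in NPMc+, 72.6 CPM in Flt3-ITD and 59.4 CPM in Mx, and 56.0 CPM in male NPMc+/Flt3-ITD cells, against 157.7 CPM in NPMc+, 40.2 CPM in Flt3-ITD and 67.3 CPM in Mx. Hoxa5 parted the other way. It had 29.4 CPM (21.5 to 39.4) in female NPMc+/Flt3-ITD and 34.7 CPM in female NPMc+ cells, against 29.1 CPM in female Mx cells, so neither passed 1.5-fold there. In male cells it had 41.0 CPM in NPMc+/Flt3-ITD and 39.9 CPM in NPMc+, against 20.1 CPM in Mx. Hoxa7 differed between the sexes by less than counting error, with 83.9 CPM in male and 83.1 CPM in female NPMc+/Flt3-ITD cells, against 53.7 and 46.8 CPM in Mx. The female cells of NPMc+/Flt3-ITD held 1.68% T-lineage and 15.6% stem cell marker cells, and its male cells 31.3% and 6.19%. The part of these shares in the difference was not tested, and sex, animal and the share of mutant cells cannot be told apart.

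Shares of cells with a UMI were compared after every cell was thinned to 3000 UMIs, which left out 125 NPMc+, 218 Flt3-ITD, 330 NPMc+/Flt3-ITD and 208 Mx cells. Hoxa9 was detected in 36.0% of NPMc+, 19.0% of Flt3-ITD, 26.5% of NPMc+/Flt3-ITD and 30.3% of Mx cells at that depth, and in 69.2%, 41.7%, 51.5% and 56.8% of unthinned cells. Meis1 was detected in 51.8% of NPMc+, 45.3% of Flt3-ITD, 40.5% of NPMc+/Flt3-ITD and 62.7% of Mx cells at that depth, and in 84.1%, 76.3%, 65.3% and 86.8% unthinned. Nkx2-3 was detected in 35.4% of NPMc+ cells, against 14.2% of Flt3-ITD, 14.5% of NPMc+/Flt3-ITD and 18.4% of Mx cells at 3000 UMIs. For Nkx2-3 the unthinned shares were 64.1%, 26.5%, 26.8% and 36.0%. NPMc+ stood highest for Hoxa9 and Nkx2-3, and Mx for Meis1. Erythroid marker cells, which should hold little of these genes, gave a background of 14.9% for Hoxa9 (7 of 47 cells, 6.204% to 28.3%), 23.4% for Meis1 (12.3% to 38.0%) and 10.6% for Hoxa7, Hoxa10 and Nkx2-3 (3.55% to 23.1%). Above the upper bound of these intervals stood Meis1 in all 4 libraries, Hoxa9 in NPMc+ and Mx, and Nkx2-3 in NPMc+. Those cells had a median of 13862 UMIs, against 8258 in other cells. Erythroid marker cells numbered 25 in NPMc+, 8 in Flt3-ITD, 3 in NPMc+/Flt3-ITD and 12 in Mx before the depth limit, so their shares are no background of a single library. The Hoxa10 share was 17.7% in NPMc+, 11.7% in Flt3-ITD, 6.59% in NPMc+/Flt3-ITD and 10.9% in Mx. All 4 lay within the interval of the erythroid share, so this measure does not set any of them apart from it. Hoxa3, Pbx3 and Mn1 were found in at most 5.54% of cells in any library, within the intervals of their erythroid shares, so no order of the libraries is read from these shares.

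Cells carried more kinds of Hoxa transcript in NPMc+. At 3000 UMIs, 4.71% of NPMc+ cells (3.87 to 5.67) had UMIs of at least 3 of the 5 Hoxa genes, against 0.966% of Flt3-ITD, 1.74% of NPMc+/Flt3-ITD and 1.51% of Mx cells. Cells with none of the 5 made up 36.7% of NPMc+, 58.9% of Flt3-ITD, 47.8% of NPMc+/Flt3-ITD and 48.6% of Mx. Of 47 erythroid marker cells, 61.7% (46.4 to 75.5) had none of the 5 and 0 had at least 3, which allows a share of up to 7.55%. The shares of cells with at least 3 lie below that limit, so the background of that count is not resolved at this number of cells.

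Within each library most of the genes were higher in stem cell marker cells than in other cells, most of them by less than 1.5-fold. How many of all genes were higher by any amount was not counted. Stem cell marker cells had 4 genes higher past 1.5-fold than other cells in NPMc+, where 10.0% of all genes were, 3 in Flt3-ITD, where 5.33% were, 3 in NPMc+/Flt3-ITD, where 5.44% were, and 1 in Mx, where 3.12% were. Nkx2-3 was among them in every library, by 1.89-fold, 2.13-fold, 2.15-fold and 1.65-fold in that order. From cells with 0 to cells with 4 or more of the 10 markers, all 9 genes were higher at the top than at the bottom in NPMc+, in Flt3-ITD and in Mx, and 7 of 9 in NPMc+/Flt3-ITD, where the top bin held only 44 cells and Hoxa3 and Mn1 were the exceptions, on 1 UMI each. The share of all genes that did so was not counted, so how unusual these counts are is not known. Some of the rises had overlapping intervals, such as that of Pbx3 in Mx, from 15.9 CPM (11.7 to 21.0) to 18.8 CPM (14.5 to 24.0). In NPMc+ cells Nkx2-3 had 86.1, 125, 170.0, 214 and 258 CPM in cells with 0, 1, 2, 3 and 4 or more markers. In Flt3-ITD cells it had 27.8, 48.4, 65.8, 78.8 and 139 CPM over the same bins, in NPMc+/Flt3-ITD cells 35.9, 62.5, 95.3, 120.0 and 129 CPM, and in Mx cells 36.0, 47.3, 65.9, 74.1 and 99.3 CPM. In each library it was higher in every next bin. These bins were set after the data were seen. Hoxa9 had 119 CPM in NPMc+ cells with no stem cell marker and 179 CPM in those with 4 or more, against 88.9 and 147 CPM in Mx cells of the same bins. Meis1 had 220.4 and 279 CPM in these bins of NPMc+, against 260.1 and 357 CPM in Mx. Meis1 was thus lower in NPMc+ than in Mx in each bin, and Hoxa9 higher in each.

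**Figure D4:**
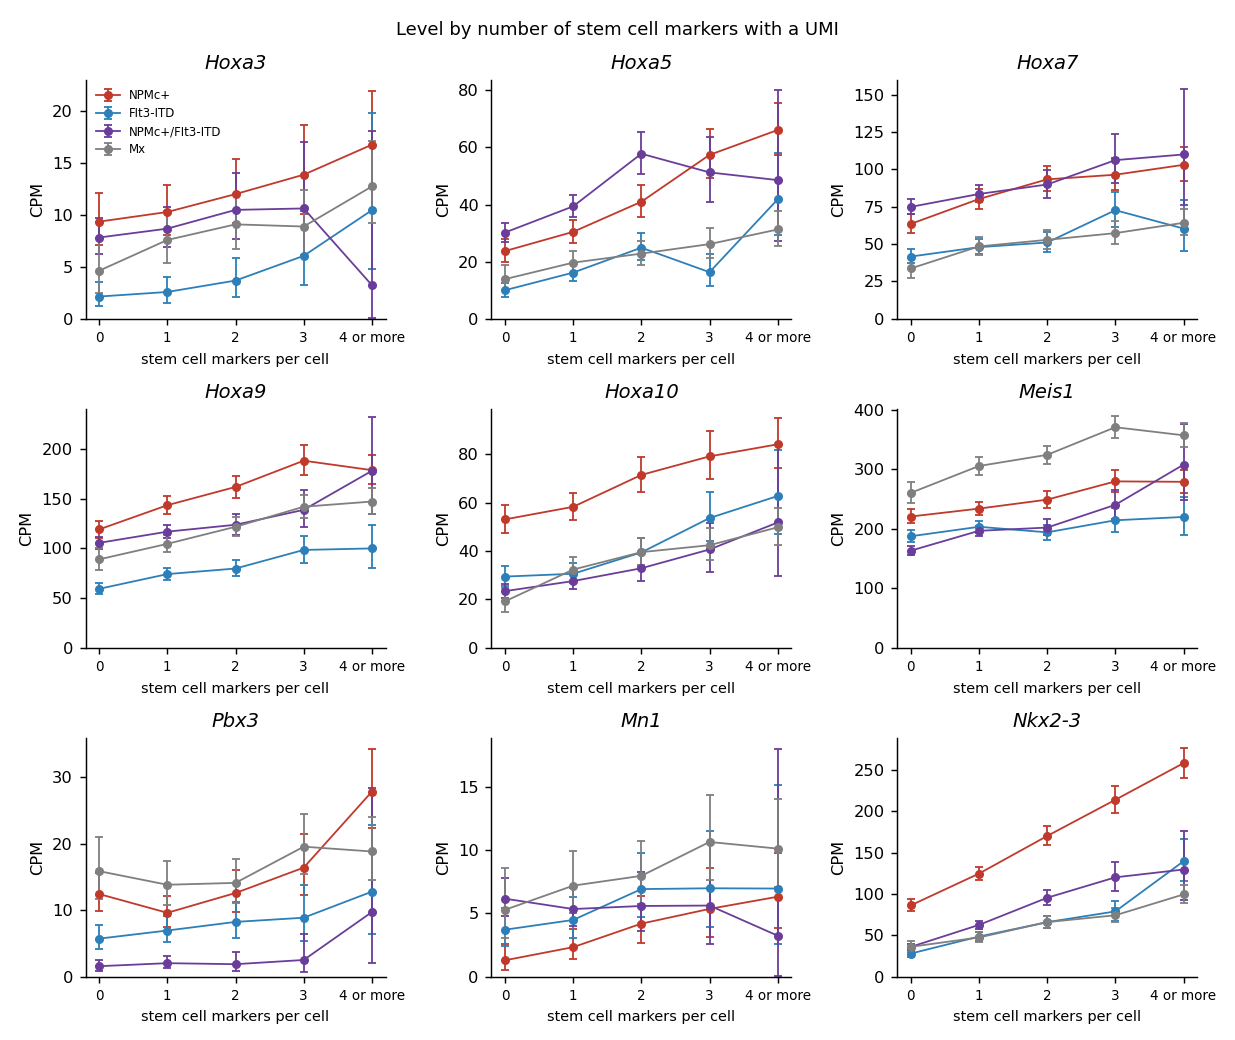
CPM of each gene in cells grouped by how many of 10 stem cell markers had a UMI (x axis, 0 to 4 or more), for the 4 libraries. Points are pooled values of a bin and whiskers exact 95% Poisson intervals. Most lines climb to the right. The NPMc+ line of Nkx2-3 climbs to 258 CPM, and that of Mx to 99.3 CPM.

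With stem cell marker cells set against stem cell marker cells, which takes the unequal share of such cells out of the comparison, the same 4 genes were higher past 1.5-fold in NPMc+ as in whole libraries, where 5.63% of all genes were. Nkx2-3 had 236 CPM in NPMc+ and 85.9 CPM in Mx, 2.75-fold higher (2.501 to 3.02). Hoxa5 had 61.7 CPM in NPMc+ and 28.5 CPM in Mx, 2.16-fold higher (1.82 to 2.57). Hoxa7 was 1.65-fold and Hoxa10 1.78-fold higher, and Meis1 stood at 0.766 of Mx. In the same cells Nkx2-3 had 122 CPM in NPMc+/Flt3-ITD and 85.9 CPM in Mx, 1.41-fold higher (1.21 to 1.65), while the interval for whole libraries held 1. In Flt3-ITD, Hoxa3 moved to 0.685 (0.407 to 1.11) of Mx and Meis1 stood at 0.592 (0.543 to 0.646). Hoxa10, with 56.2 CPM in Flt3-ITD and 45.9 CPM in Mx, was above Mx in these cells, and the intervals of Hoxa7 and Nkx2-3, whose ratios were above 1, held 1.

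The T-lineage marker cells of NPMc+/Flt3-ITD divided the genes into 3 groups. Against the other cells of that library, Hoxa10, Meis1, Pbx3 and Nkx2-3 were lower past 1.5-fold, 4 genes where 11.5% of all genes were, and Mn1 was higher, where 6.71% were. Hoxa3, Hoxa5, Hoxa7 and Hoxa9 lay between. Meis1 had 86.6 CPM in T-lineage marker cells and 219 CPM in other cells, a ratio of 0.396 (0.362 to 0.433). Hoxa10 had 12.6 CPM in T-lineage marker cells and 32.4 CPM in other cells, a ratio of 0.388 (0.304 to 0.4902). Hoxa7 had 72.0 CPM in T-lineage marker cells and 86.1 CPM in other cells, a ratio of 0.836 (0.753 to 0.927). The T-lineage marker cells thus differed less from the other cells in Hoxa7 than in Meis1 and Hoxa10.

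The cells of NPMc+/Flt3-ITD were also taken by the number of the 11 T-lineage markers with a UMI, and 5 of the 9 genes then went 1 way through all bins. How many of all genes went 1 way through these bins was not counted, so whether 5 is unusual is not known. Cells with 0, 1 to 2, 3 to 4 and 5 or more markers numbered 895, 1460, 332 and 634, and the last bin was shallower, with a median of 4675 UMIs. Meis1 had 254, 201, 136 and 40.6 CPM in these bins. Nkx2-3 had 79.7, 67.7, 48.2 and 7.02 CPM, and Hoxa10 had 42.5, 27.3, 17.3 and 8.24 CPM. These 3 and Pbx3, which had 0 UMIs in the last bin, were lower in every next bin, and Mn1 was higher in every next bin, at 3.56, 5.29, 8.79 and 9.15 CPM. Hoxa9 had 122, 123, 106 and 78.1 CPM and Hoxa7 had 84.6, 86.8, 81.1 and 63.4 CPM. Hoxa5 had 37.3, 43.8, 45.3 and 20.1 CPM, so that only the last bin lay below the first. In cells with 5 or more T-lineage markers Hoxa7 was therefore above, and Meis1, Hoxa10 and Nkx2-3 below, the level of each in the whole Mx library.

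**Figure D5:**
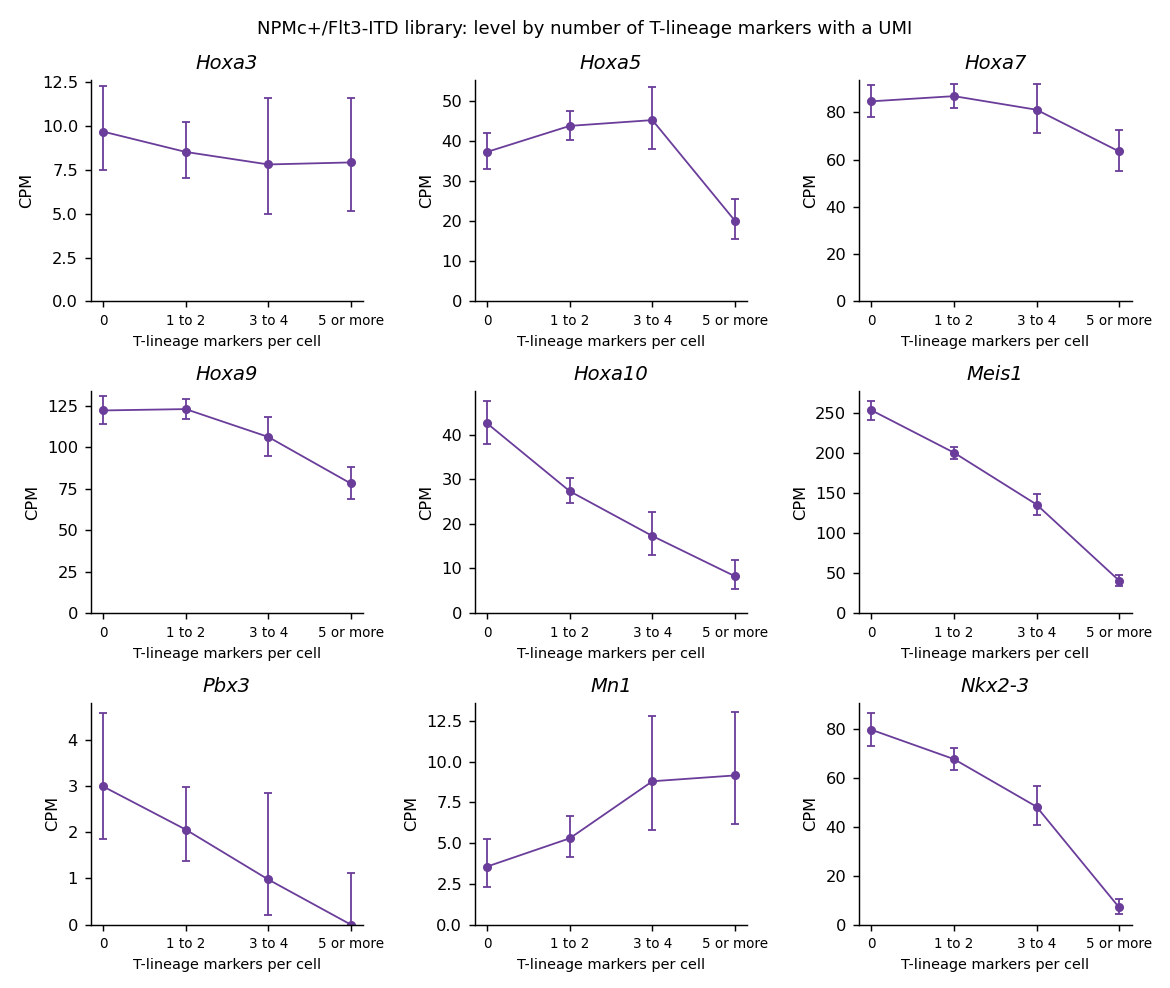
CPM of each gene in NPMc+/Flt3-ITD cells grouped by how many of 11 T-lineage markers had a UMI (x axis, 0 to 5 or more), with exact 95% Poisson intervals. Meis1, Hoxa10, Pbx3 and Nkx2-3 step down through all 4 bins, Mn1 steps up, and the other 4 Hoxa genes have no such steady course.

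Past 1.5-fold, dividing cells carried less of several of the genes in Mx and NPMc+, and of only 2 in each library with Flt3-ITD. In Mx, cells with at least 3 of 9 mitotic markers had 7 of the 9 genes lower past 1.5-fold, where 17.5% of all genes were, and 60 megakaryocyte marker cells had 8 lower, where 15.6% were, 4 of them on 7 or fewer UMIs. Mitotic cells had 5 genes lower in NPMc+, where 17.0% were, and 2 each in Flt3-ITD, where 15.3% were, and in NPMc+/Flt3-ITD, where 10.7% were. Nkx2-3 and Mn1 were among the lower ones in mitotic cells of all 4 libraries, Mn1 on 3 to 6 UMIs. Hoxa9 had 131 CPM in mitotic cells and 114 CPM in other cells of NPMc+/Flt3-ITD, a ratio of 1.15 (1.02 to 1.298), against a ratio of 0.66 (0.585 to 0.742) in NPMc+. Mitotic cells were the deeper ones, with medians of 11985 to 19137 UMIs. In Mx megakaryocyte marker cells Hoxa9 had 49.5 CPM, against 123 CPM in other cells, a ratio of 0.402 (0.275 to 0.569). The other libraries had fewer genes lower in such cells. There were 3 in NPMc+ (327 cells), where 9.67% of all genes were, 4 in Flt3-ITD (59 cells), where 15.1% were, and 3 in NPMc+/Flt3-ITD (71 cells), where 12.9% were. Hoxa9 stood at 0.701 (0.635 to 0.772) in NPMc+, 0.405 (0.2500 to 0.621) in Flt3-ITD and 0.884 (0.679 to 1.13) in NPMc+/Flt3-ITD. In NPMc+/Flt3-ITD 2 genes were higher in these cells, where 9.88% of all genes were: Hoxa10 at 1.88 (1.28 to 2.68), and Pbx3 on 3 UMIs.

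The wider pathway was read from lists of names. Of 13 other names of the Hoxa region 10 matched, and 0 reached the floor. Of 28 other Hox genes (HoxB, HoxC and HoxD), only Hoxb2, Hoxb4 and Hoxb5 were measured. In NPMc+ over Mx, 1 was higher past 1.5-fold, where 4.9% of all genes were, and 0 lower: Hoxb5, a marker of long-term stem cells, had 17.4 CPM in NPMc+ and 10.8 CPM in Mx, 1.62-fold higher (1.37 to 1.91). All 3 were lower than in Mx in the other mutant libraries, against 10.2% of all genes in the Flt3-ITD library and 12.2% in that of both mutations. Hoxb4, which expands stem cells when overexpressed, had 11.6 CPM in NPMc+/Flt3-ITD and 27.5 CPM in Mx, a ratio of 0.423 (0.367 to 0.486). Hoxb2 had 1.52 CPM in NPMc+/Flt3-ITD and 18.0 CPM in Mx, a ratio of 0.0845 (0.0596 to 0.117). In NPMc+/Flt3-ITD the 3 HoxB genes thus stood below Mx where Hoxa5 and Hoxa7 stood above it.

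Of 7 measured TALE partners, 0 passed 1.5-fold against Mx in either single mutant, where 17.7% of all genes did in NPMc+ and 15.4% in Flt3-ITD. In NPMc+/Flt3-ITD 3 were higher and 2 lower, where 12.8% of all genes were higher and 12.2% lower. Tgif1, a TALE repressor, had 86.0 CPM in NPMc+/Flt3-ITD and 44.1 CPM in Mx, 1.95-fold higher (1.81 to 2.11). Pbxip1, which binds PBX proteins, had 71.3 CPM in NPMc+/Flt3-ITD and 46.1 CPM in Mx, and Tgif2 had 11.9 and 20.1 CPM in the same libraries. Pbx4, named after its values were seen, was the other one higher, 1.705-fold (1.53 to 1.91). Tgif1, Pbxip1 and Pbx4 were thus above Mx in the library in which Pbx3 stood at its lowest.

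Of 26 measured regulators of Hoxa chromatin, 1 was lower past 1.5-fold in NPMc+ than in Mx and 0 higher, where 12.8% and 4.9% of all genes were. It was Aff1, of the super elongation complex, with 7.22 CPM in NPMc+ and 12.9 CPM in Mx. Kmt2a, the methyltransferase that keeps Hoxa genes active, had 58.0 CPM in NPMc+ and 84.4 CPM in Mx, a ratio of 0.687 (0.64 to 0.736), which did not pass 1.5-fold. Suz12 of the Polycomb complex, at a ratio of 0.718, and Aff4, at 0.672, did not pass either. Flt3-ITD and NPMc+/Flt3-ITD each had 2 lower and 0 higher, where 10.2% and 12.2% of all genes were lower. These were Mllt3 and Rbbp5 in Flt3-ITD and Mllt3 and Nup98 in NPMc+/Flt3-ITD, named after their values were seen, and Mllt3 is also among the stem cell markers. Of 18 genes known as targets of HOXA9 or MEIS1, 3 were higher and 2 lower in NPMc+ than in Mx, where 4.9% of all genes were higher and 12.8% lower. Rgs10 was 1.83-fold and Gfi1b 1.68-fold higher, and the third was Pim1, named after its values were seen. Flt3, the receptor gene, had 12.8 CPM in NPMc+ and 29.9 CPM in Mx, a ratio of 0.429 (0.374 to 0.492), and Cd34, a progenitor marker, stood at 0.581 of Mx. In NPMc+/Flt3-ITD, 8 of the 18 were higher and 2 lower than in Mx, where 12.8% of all genes were higher and 12.2% lower. Flt3 was 2.37-fold and Cd34 1.92-fold higher. The median of the list was 0.49 on the log2 scale there, against 0.14 for all genes, and -0.11 in NPMc+, against -0.06 for all genes. Lists and markers share Flt3, Cd34 and Mllt3, and T-lineage marker cells are in these sums.

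Other genes were ranked by how closely their log2(CPM + 1), centred on each gene, followed Hoxa9 or Meis1 over the 4 libraries, among 5955 genes of at least 20 CPM on average. The nearest to Hoxa9 were Isg20, Ifi47, Tusc2, Lgals3bp and Dedd, at Euclidean distances of 0.15 to 0.23. Isg20 had 51.6 CPM in NPMc+, 23.9 CPM in Flt3-ITD, 41.8 CPM in NPMc+/Flt3-ITD and 37.9 CPM in Mx. The nearest to Meis1 were Xaf1, Dennd2d, Irf2, Rock2 and Afap1l1, at distances of 0.06 to 0.15. Xaf1 had 28.8 CPM in NPMc+, 23.2 CPM in Flt3-ITD, 23.1 CPM in NPMc+/Flt3-ITD and 38.6 CPM in Mx. Hoxa7 stood at rank 507 from Hoxa9, Meis1 at rank 2015 and Hoxa10 at rank 2864. With 4 points per gene many genes lie close by, and Hoxa3, Pbx3 and Mn1 were below 20 CPM and not ranked. None of the other members was among the 5 nearest to Hoxa9 or to Meis1.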

How the data were processed

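Droplet single-cell RNA-seq (10x Genomics 3′, version 2 chemistry) of sorted LT-HSCs gave 1 library per genotype. The deposited tables hold raw UMI counts per gene and cell barcode; per the submitters' processing notes they were made with STARsolo of STAR 2.7.0c on mm10, and the strand setting and annotation are not given in the sources used here. The 9 genes, the gene lists and the marker lists were chosen with earlier results of these data known.

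UMIs of the kept cells were summed per library and given as CPM, with exact 95% Poisson intervals. Ratios of CPM have exact intervals from the binomial split of the UMIs, and shares of cells have Clopper-Pearson intervals, after each cell was thinned to 3000 UMIs (seed 1). Differences of log2 ratios have normal intervals from the same counts. Tested genes had a mean of at least 5 CPM, and a gene was called at 1.5-fold. Where a count was 0, a floor of 3 counts was used. Cells were classed by markers (at least 3 with a UMI), without clustering, at 3000 UMIs or, in cells with fewer, on all their UMIs. No doublet caller was run, and leaving out the 5% of cells with most UMIs was an alternative. Of all barcodes, 148 occurred in more than 1 library, and their cells were kept. Cells were called male or female from Xist and Y-linked transcripts, and cells without a clear call were left out of that split. The bins of cells by marker number and the alternative of stem cell marker cells only were chosen after seeing the data. Beside the 9, the text names the 4 measured genes of each list whose NPMc+ ratio to Mx was furthest from 1, the 5 nearest genes to Hoxa9 and to Meis1 by distance of centred log2(CPM + 1), and Npm1, Flt3 and Gm5611 as checks of the labels; any other gene was named after its values were seen. The values of 1 list gene are not reported here. The ratio and its interval were tested on simulated data. Python 3.11.15, numpy 2.4.6, scipy 1.17.1, pandas 2.3.3, matplotlib 3.10.9, R 4.3.3 and edgeR 4.0.16 (TMM factors only, since 1 library per genotype allows no test) were used. Of 26687 symbols, 25415 were in GENCODE M21. Precision is set by 20943905 to 26965367 kept UMIs per library.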

Additional observations from a re-analysis of the deposited data

Results flagged for a closer look

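Each of these values stands out because ratios that ask the same question had opposite signs in different settings. The differences were not tested, since there is 1 library per genotype. All values are log2 ratios of CPM.

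For Hoxa10, the NPMc+ ratio was -0.36 for NPMc+/Flt3-ITD over Flt3-ITD and 0.83 for NPMc+ over Mx. For Mn1, the Flt3-ITD ratio was 0.77 for NPMc+/Flt3-ITD over NPMc+ and -0.70 for Flt3-ITD over Mx.

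Cells were also split by sex-linked transcripts into male and female cells, because each library held both. Hoxa10 in NPMc+/Flt3-ITD over Mx stood at -0.58 in male cells and 1.01 in female cells. Hoxa10 in NPMc+/Flt3-ITD over Flt3-ITD stood at -0.45 in male cells and 0.78 in female cells. Nkx2-3 in Flt3-ITD over Mx stood at -0.74 in male cells and 0.29 in female cells, and in NPMc+/Flt3-ITD over Mx at -0.27 in male cells and 1.03 in female cells. The female NPMc+/Flt3-ITD values rest on 179 cells. Without T-lineage marker cells the male NPMc+/Flt3-ITD cells had 27.2 CPM of Hoxa10 and 64.9 CPM of Nkx2-3, against 75.2 and 121 CPM in all female cells of that library. The part of these cell classes in the sex difference was not tested, and sex and animal cannot be told apart.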

How the results depend on the processing

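No paired analysis was possible because each genotype had 1 library and no library could be left out. The number of the 9 genes past 1.5-fold stayed within 1.5 times its value in 71 of 85 recounts under other settings. For NPMc+ over Mx it was 5, and 2 with a fold of 2. For Flt3-ITD over Mx it was 5, and 2 with TMM scaling, with female cells, with stem cell marker cells only, with a fold of 2 and with a floor of 20 CPM. For NPMc+/Flt3-ITD over Mx it was 4, and 1 with a fold of 2. For NPMc+/Flt3-ITD over Flt3-ITD it was 5, and 3 with TMM scaling, with a total that leaves out mitochondrial and ribosomal protein genes, with stem cell marker cells only, with a fold of 2 and with a floor of 20 CPM. For NPMc+/Flt3-ITD over NPMc+ it was 4, and 2 with female cells and with a floor of 20 CPM. The floor removes Hoxa3, Pbx3 and Mn1 from the count by construction. Among 675 log2 ratios recomputed for single genes, 4 called ones changed sign, all for NPMc+/Flt3-ITD over NPMc+. A further 53, all of ratios that were short of 1.5-fold as reported, also took the other sign, 12 of them in female cells and 11 in stem cell marker cells only. Hoxa10, at -1.24, turned to 0.24 in female cells. Mn1, at 0.77, turned to -0.49 in female cells, to -0.34 with cells of every other marker class left out, and to -0.16 in stem cell marker cells only. Of 170 ratios between marker classes 1 changed sign: Mn1 in granulocyte-monocyte marker cells of NPMc+/Flt3-ITD, at a log2 ratio of 0.17 when 2 markers sufficed. The cause was not tested. Mn1, Pbx3 and Hoxa3 rest on 52 to 353 UMIs a library, which limits what can be read of them within classes.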

Other observations

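A gene of the Hoxa cluster below the floor stood apart and was looked at after its values were seen. Hoxa2, the most anterior Hoxa gene but one, had 296 UMIs (11.0 CPM) in NPMc+/Flt3-ITD, against 57 UMIs (2.27 CPM) in NPMc+, 20 UMIs (0.91 CPM) in Flt3-ITD and 36 UMIs (1.72 CPM) in Mx. The ratio of NPMc+/Flt3-ITD to Mx was 6.39 (4.51 to 9.296, counting error only). Within NPMc+/Flt3-ITD it had 8.51 CPM in T-lineage marker cells and 11.7 CPM in other cells. Hoxaas2, another gene of the Hoxa region, had 45 UMIs in NPMc+/Flt3-ITD, against 8 in NPMc+, 1 in Flt3-ITD and 5 in Mx. The annotation Gm28308 overlaps Hoxa2 on the same strand, and the counting setting is not given in the sources used here, so reads of Hoxa2 and its overlapping genes may not be told apart.

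Hoxa11, at the posterior side of Hoxa10, had 14 UMIs (0.558 CPM) in NPMc+ and 0 in each of the other 3 libraries. The upper bounds for 0 UMIs were 0.168 CPM in Flt3-ITD, 0.137 CPM in NPMc+/Flt3-ITD and 0.176 CPM in Mx. Hoxa4 and Hoxa6, which lie between higher members, had at most 1.396 and 2.58 CPM in any library. Hotairm1, a long noncoding gene of the cluster's anterior end, had 3.75 CPM in NPMc+, 3.87 CPM in Flt3-ITD, 4.302 CPM in NPMc+/Flt3-ITD and 6.54 CPM in Mx.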
